A study of Mus musculus with 6 samples.

Results

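The genes described here are 10 members of the DNA damage checkpoint, chosen by symbol as checkpoint kinases and proteins recruited around DNA breaks: Atm, Atr, Chek1, Chek2, Mdc1, Trp53bp1, Topbp1, Rnf8, Rnf168 and Rif1. All 10 were found among the 11108 genes listed, and all 10 passed the filter on low values. Their RNA was measured in hematopoietic stem cells, the self-renewing source of all blood lineages, sorted from the bone marrow of Mcph1-/- mice and wild-type (WT) mice, with 3 libraries of each genotype. Cells were sorted as lineage-negative, Sca-1+ c-kit+ CD34- CD150+, untreated, and 200 of them went into each library by Smart-seq2, which copies whole transcripts from small inputs. The sources used here do not give the strain or age of the mice, the deleted part of Mcph1, or whether each library came from its own mouse. A p-value here therefore rests on library-to-library variation alone, part or all of which may be technical.

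The DNA damage checkpoint is a relay of kinases and scaffold proteins. ATM answers to double-strand breaks and passes the signal mainly to CHK2, while ATR, helped by TOPBP1, answers to single-stranded DNA at stalled forks and passes it to CHK1. Around a break, MDC1 binds the phosphorylated histone H2AX and recruits the ubiquitin ligase RNF8. A further ligase, RNF168, follows and extends the ubiquitin mark that RNF8 starts. The histone marks of RNF8 and RNF168 bring in TP53BP1 and then RIF1, a pair that limits the resection of DNA ends. Microcephalin, the protein of Mcph1, is itself recruited to phosphorylated H2AX. Hematopoietic stem cells are mostly out of cycle and depend on this response to keep their genome intact as they divide.

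Promoter windows, taken from RefSeq for mouse build GRCm38.p6, are shown for 5 of these genes to set Chek1 and Atr, the members with the largest fold changes, beside Rnf8, which had the opposite sign, and Mdc1 and Chek2, whose sign turned when 1 library was left out. The signs of Trp53bp1 and Topbp1, whose windows are not shown, turned as well. Windows were matched by symbol for 9 of the 10 members, Rif1 having none, and run from 250 bases before the start to 50 after it. Capitals mark matches, on either strand, to letters used here for the site of E2F, a family of transcription factors of the G1 to S transition: TTTCCCGC, TTTGGCGC, TTTCGCGC or TTCCCGCC. The Chek1 window is on the minus strand at chr9:36726609-36726908, the Atr window on the plus strand at chr9:95857347-95857646, the Rnf8 window on the plus strand at chr17:29614539-29614838, the Mdc1 window on the plus strand at chr17:35841248-35841547 and the Chek2 window on the plus strand at chr5:110839733-110840032.
Chek1: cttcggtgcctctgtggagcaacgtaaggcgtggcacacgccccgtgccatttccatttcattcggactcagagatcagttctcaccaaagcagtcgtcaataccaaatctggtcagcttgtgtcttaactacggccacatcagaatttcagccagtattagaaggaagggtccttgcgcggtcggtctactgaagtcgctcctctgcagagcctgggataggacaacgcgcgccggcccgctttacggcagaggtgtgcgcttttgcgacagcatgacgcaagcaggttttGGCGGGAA
Atr: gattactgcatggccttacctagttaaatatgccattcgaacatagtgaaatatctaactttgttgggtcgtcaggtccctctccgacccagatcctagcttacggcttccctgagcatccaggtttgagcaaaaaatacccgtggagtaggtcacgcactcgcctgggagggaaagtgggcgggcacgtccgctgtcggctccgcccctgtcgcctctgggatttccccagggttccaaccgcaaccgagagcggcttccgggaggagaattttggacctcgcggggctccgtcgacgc
Rnf8: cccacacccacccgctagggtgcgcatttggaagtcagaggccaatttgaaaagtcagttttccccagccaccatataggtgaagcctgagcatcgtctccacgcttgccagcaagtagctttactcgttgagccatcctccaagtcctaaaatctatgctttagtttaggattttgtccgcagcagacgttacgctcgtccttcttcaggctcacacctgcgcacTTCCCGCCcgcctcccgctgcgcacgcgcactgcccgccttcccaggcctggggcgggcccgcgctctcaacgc
Mdc1: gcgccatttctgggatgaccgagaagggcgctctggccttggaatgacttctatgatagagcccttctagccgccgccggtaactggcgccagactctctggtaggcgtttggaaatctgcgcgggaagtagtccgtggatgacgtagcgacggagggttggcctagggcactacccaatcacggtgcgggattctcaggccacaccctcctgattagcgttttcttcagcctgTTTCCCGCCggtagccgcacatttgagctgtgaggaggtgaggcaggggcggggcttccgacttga
Chek2: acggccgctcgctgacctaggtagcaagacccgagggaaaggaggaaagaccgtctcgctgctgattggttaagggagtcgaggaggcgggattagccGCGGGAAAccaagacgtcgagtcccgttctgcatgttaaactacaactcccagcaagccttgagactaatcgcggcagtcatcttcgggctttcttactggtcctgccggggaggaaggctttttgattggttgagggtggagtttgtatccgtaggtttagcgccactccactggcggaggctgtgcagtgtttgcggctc

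Such letters were present in 6 of the 9 windows, those of Chek1, Chek2, Mdc1, Topbp1, Rnf8 and Rnf168, and not in those of Atm, Atr and Trp53bp1. They were present in 3.57% of 27025 promoter windows of the same length, 1 per gene, and in 6.95% of the 7802 windows that matched a tested gene by symbol. Counted from 0 at the RefSeq start of each window, the match begins at 42 in Chek1, at -24 in Rnf8, at -152 in Chek2 and at -16 in Mdc1, where 2 of the listed strings overlap. The RefSeq start of Chek1 lies 407 bases inside the gene as annotated by GENCODE, and its window does not cover the GENCODE start. The RefSeq starts of Atr, Rnf8, Chek2 and Mdc1 lie within 17 bases of the GENCODE start. Chek1, with the highest fold change of the members, and Rnf8, with the lowest, both held TTCCCGCC, while Atr, next after Chek1, held none of these strings. The letters CCAAT were found in 4 of the 9 windows, against 37.92% of all windows and 39.2% of those of tested genes. The ETS core CCGGAAG was also found in 4 of the 9, against 9.12% of all windows and 20.9% of those of tested genes. A match in letters is a description of the sequence and not evidence of binding.

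Libraries held 9464810 to 10455908 reads on the listed genes in Mcph1-/- and 8102605 to 8655123 in WT, and the unit below, the normalised read count, is the number of reads divided by the size factor of the library. Genes with 0 reads in at least 1 library of the genotype made up 10.9% of those listed in Mcph1-/- and 19.2% in WT. Mcph1 itself stood at 428, 37.7 and 233.9 in Mcph1-/- replicates 1 to 3 and at 160.5, 341 and 34.4 in WT, a count over the whole gene that does not check the genotype. All 12 stem cell markers tested had reads, among them Kit and Ly6a, the gene of Sca-1, in every library, although Slamf1, the gene of CD150, was at 65.7, 395 and 0.893 in Mcph1-/- and at 0, 223.6 and 497 in WT. Summed neutrophil markers (6 of 8 with values) stood at 296 to 13266 in Mcph1-/- and 52138 to 65421 in WT, and summed erythroid markers (8 of 8) at 30487 to 38363 in Mcph1-/- and 4218 to 20021 in WT. Megakaryocyte markers (4 of 4) summed to 985 to 2329 in Mcph1-/- and 1546 to 4838 in WT, and B cell markers (3 of 4) to 374 to 2472 in Mcph1-/- and 878 to 1829.5 in WT. Lyz2, the 1 monocyte and macrophage marker of 4 with values, stood at 4399.7 to 4628 in Mcph1-/- and 7454 to 12241 in WT. The 4 T cell markers have no values here. The neutrophil sum and Lyz2 did not overlap between genotypes. Of the 6 neutrophil markers, 4 (S100a8, S100a9, Ngp and Camp) were lower in every Mcph1-/- library than in any WT library, while Mpo and Elane overlapped. Mpo stood at 1.82, 53.3 and 4856 in Mcph1-/- and at 5959, 1.03 and 2.02 in WT. Elane stood at 3.65, 0 and 8095 in Mcph1-/- and at 3614, 138 and 1.01 in WT. The erythroid sum in Mcph1-/- is mostly Car1, a carbonic anhydrase of red cell precursors. Without Car1 the sum was 6474.8 to 8325 in Mcph1-/- and 2240.8 to 15454 in WT, which overlap. Of the 8 markers, 3 (Car1, Klf1 and Blvrb) were higher in every Mcph1-/- library than in any WT library. Klf1 stood at 2394 to 2997 in Mcph1-/- and 200 to 1017 in WT, and Blvrb at 3203 to 4333 in Mcph1-/- and 1751 to 2038 in WT. The globin genes Hba-a1 and Hbb-bs were lower in every Mcph1-/- library than in any WT library, at 55.0 to 185 in Mcph1-/- and 251 to 8516 in WT for Hba-a1 and at 0 to 9.82 in Mcph1-/- and 24.7 to 2257 in WT for Hbb-bs. The part of these other-lineage transcripts in the values below was not tested. In bulk samples, a change in the share of some cells and a change of RNA per cell cannot be told apart.

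None of the 10 genes passed the test between genotypes. By limma on log2(value + 1) with Benjamini-Hochberg adjustment over 10846 genes, the members' adjusted p ran from 0.626 to 0.938. Over all genes the same test called 1 gene higher in Mcph1-/- (0.00922% of those tested) and 3 genes lower (0.0277%), so few genes of any kind passed. At an unadjusted p under 0.05, 1 of the 10, Chek1, was higher and none was lower, against 4.16% of all genes higher and 3.55% lower. By mean log2 difference 7 members were higher in Mcph1-/- and 3 lower, against 53.8% of all tested genes higher. The members' median log2 fold change was 1.15, against 0.08 over all tested genes, and it was 0.13 without WT replicate 1. That median was 0.80 with a pseudocount of 16, 0.66 by edgeR and 0.63 by DESeq2. Called members numbered 0 also by edgeR, which called 0% of all tested genes higher and 0.0184% lower, by DESeq2 (1.11% higher and 1.09% lower) and by limma-voom (0.00922% higher and 0% lower). At an unadjusted p under 0.05 edgeR had 0 members, against 3.01% of all tested genes higher and 2.45% lower. DESeq2 had 1, Rif1, which was higher, against 5.32% higher and 5.54% lower, and limma-voom had 1, Chek1, also higher, against 5.16% higher and 3.42% lower.

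**Figure D1:**
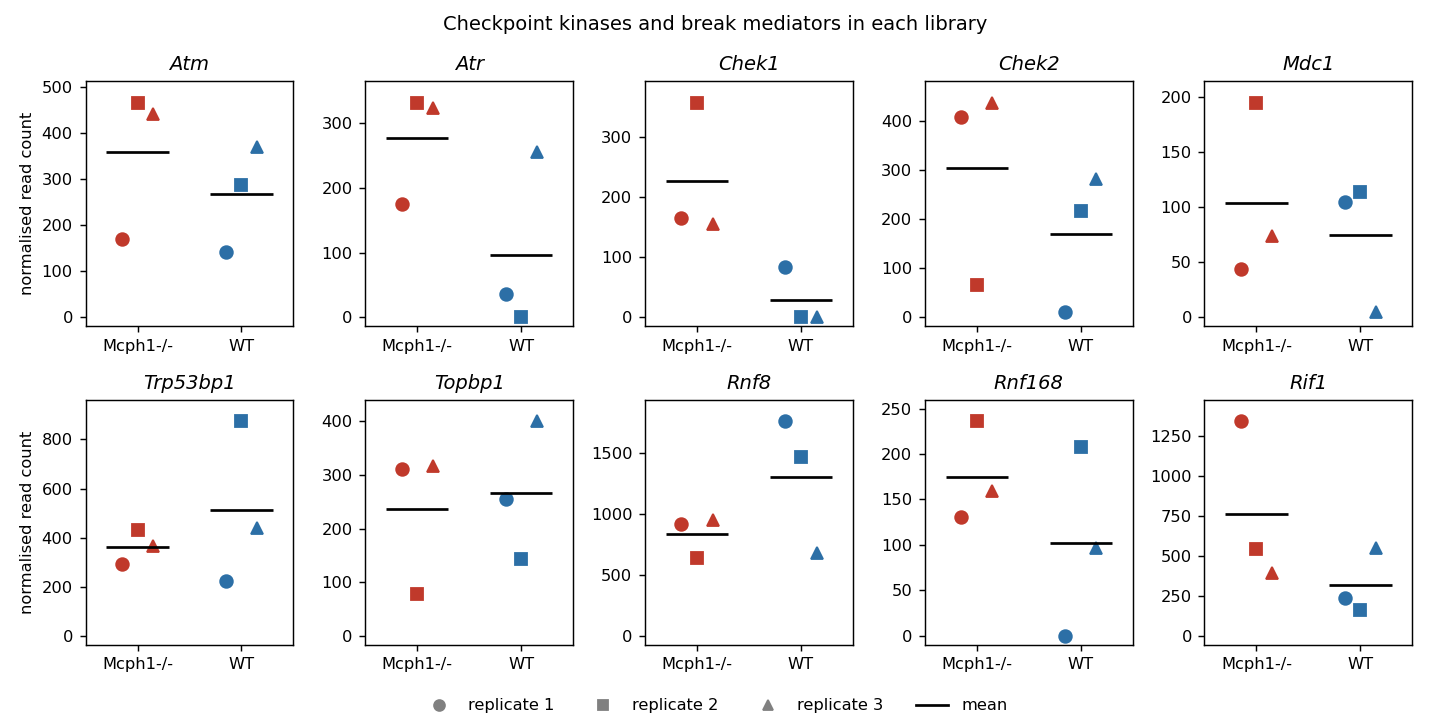
Normalised read count (y axis, linear) of each of the 10 genes in the 3 Mcph1-/- and the 3 WT libraries, with symbols for replicates and a line at the mean of each genotype. Chek1 is the 1 gene whose genotypes do not overlap, from 156 to 358 in Mcph1-/- and from 0 to 84.6 in WT.

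Of the kinases, Chek1 stood furthest apart. Chek1 encodes CHK1, the effector kinase that restrains CDC25 phosphatases and holds cells with unreplicated or damaged DNA before mitosis. Its gene (ENSMUSG00000032113) lies at positions 36708482 to 36727065 of chromosome 9, minus strand (mm10). Normalised read counts were 166, 358 and 156 in Mcph1-/- replicates 1 to 3 and 84.6, 0 and 0 in WT replicates 1 to 3. All Mcph1-/- libraries were above all WT libraries, which was so for 7.4% of all tested genes in this direction and 6.8% in the other. A count of 0 allows up to 3.09 in WT replicate 2 and up to 3.04 in WT replicate 3, from 3 reads each, a floor that covers counting error only. The means were 227 ± 114 in Mcph1-/- and 28.2 ± 48.8 in WT (SD, n = 3). The log2 fold change was 5.58 with a 95% interval of 0.91 to 10.25, and the limma adjusted p was 0.626. With 1 library left out the log2 fold change ran from 4.51 to 7.72. Of those fits, only the one without WT replicate 1 had an unadjusted limma p under 0.05. The size depends on how zeros enter the log scale: it was 2.94 with a pseudocount of 16, 3.03 by edgeR and 3.005 by DESeq2. Summed over libraries, there were 793 reads in Mcph1-/- and 78 in WT, a ratio adjusted for depth of 8.53, whose exact 95% interval, 6.75 to 10.9, covers counting error and not the spread between libraries. Listed genes have reads in at least 4 of the 6 libraries, and Chek1, with reads in 4, stands at that limit.

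Atr, the kinase upstream of CHK1, was the other kinase with an empty WT library. Atr (ENSMUSG00000032409) lies at positions 95857597 to 95951781 of chromosome 9, plus strand (mm10), and its annotated exons overlap a small nuclear RNA gene and antisense genes, so with no strand setting given its counts are uncertain. It stood at 174, 331 and 323 in Mcph1-/- and at 35.8, 0 and 255 in WT. WT replicate 3 lay within the Mcph1-/- range and the other two WT libraries below it. The means were 276 ± 88.5 in Mcph1-/- and 97.0 ± 138 in WT (SD, n = 3), and the log2 fold change was 3.66 (SE 1.96, limma adjusted p = 0.666). The log2 fold change was 1.46 without WT replicate 2, the library at 0, 5.46 without WT replicate 3, and 1.51 by DESeq2.

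Atm, the apical kinase of the double-strand break response, and Chek2, the effector kinase it activates, overlapped widely between genotypes. Atm, at positions 53439149 to 53536740 of chromosome 9, minus strand (mm10), stood at 171, 467 and 442 in Mcph1-/- and at 143, 287 and 370 in WT. Its lowest library in each genotype was replicate 1, and its log2 fold change was 0.40 (SE 0.65, limma adjusted p = 0.879). Its 95% interval ran from -1.09 to 1.90, and the log2 fold change was 0.01 without WT replicate 1. Chek2, at positions 110839979 to 110874145 of chromosome 5, plus strand (mm10), stood at 408, 65.6 and 437 in Mcph1-/- and at 11.9, 216 and 282 in WT. Each genotype had 1 low library, and the log2 fold change, 1.30 with an SE of 1.39 (limma adjusted p = 0.802), became -0.12 without WT replicate 1. The interval for Chek2, -1.90 to 4.50, includes differences of either sign.

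**Figure D2:**
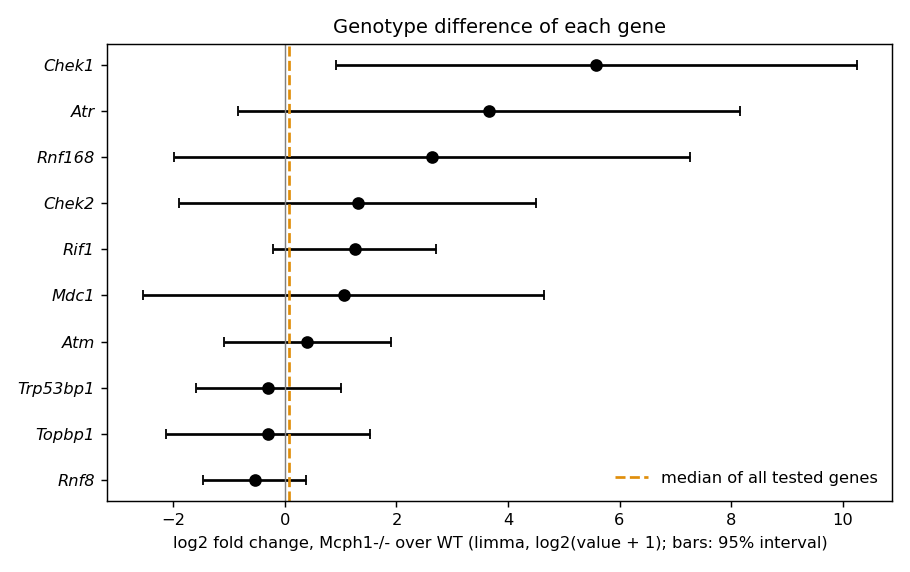
Log2 fold change (x axis, Mcph1-/- over WT) of each gene by limma on log2(value + 1), with 95% intervals as bars and the median of all tested genes as a dashed line at 0.08. The interval of Chek1 lies above 0 and those of the other 9 genes include 0.

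Among the proteins gathered around a break, Rif1 had the highest ratio of means, while Rnf168 had the highest log2 fold change. Rif1, which works with TP53BP1 at breaks and also sets the timing of replication origins, lies at positions 52072832 to 52122383 of chromosome 2, plus strand (mm10). It stood at 1345, 546 and 396 in Mcph1-/- and at 236, 165 and 552 in WT. Mcph1-/- replicate 1 was more than any other library, while WT replicate 3 lay above both remaining Mcph1-/- libraries. The means were 762 ± 510 in Mcph1-/- and 318 ± 206 in WT (SD, n = 3), a ratio of 2.40, and the log2 fold change was 1.25 (SE 0.64, limma adjusted p = 0.662). It was 0.74 without Mcph1-/- replicate 1 and 1.74 without WT replicate 3.

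Mdc1, the adaptor that reads phosphorylated H2AX, lies at positions 35841515 to 35859670 of chromosome 17, plus strand (mm10), and had the lowest mean of the members in Mcph1-/- (104), while in WT only Chek1 averaged less than its 74.9. It stood at 43.8, 195 and 74.1 in Mcph1-/- and at 105, 114 and 5.06 in WT. The value in WT replicate 3 rests on 5 reads, and without that library the log2 fold change, 1.05 with an SE of 1.56 (limma adjusted p = 0.869), became -0.35. Topbp1, the activator of ATR, lies at positions 103305215 to 103350428 of chromosome 9, plus strand (mm10). It stood at 311, 78.7 and 318 in Mcph1-/- and at 255, 143 and 401 in WT, and replicate 2 was the low library in both genotypes. The log2 fold change of Topbp1 was -0.30 (SE 0.79, limma adjusted p = 0.938), and it was 0.36 without Mcph1-/- replicate 2 and 0.05 without WT replicate 3.

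Trp53bp1, whose protein shields broken ends from resection, lies at positions 121193281 to 121271407 of chromosome 2, minus strand (mm10), and its exons overlap those of Tubgcp4 on the other strand, so its counts are uncertain. It stood at 293, 431 and 365 in Mcph1-/- and at 223, 875 and 440.3 in WT. The Mcph1-/- libraries lay close together, with a coefficient of variation of 19.1%, inside a WT range whose coefficient was 64.7%. The log2 fold change was -0.30 (SE 0.57, limma adjusted p = 0.900), and it was 0.19 without WT replicate 2.

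The ubiquitin ligases of the pathway pointed in opposite directions, neither past the test. Rnf8, the ligase that MDC1 recruits, lies at positions 29614790 to 29644991 of chromosome 17, plus strand (mm10). It shares exons with Gm28043, a protein-coding gene model on the same strand, so that the counting could split its reads and its counts are uncertain. It stood at 919.5, 639.8 and 952 in Mcph1-/- and at 1758, 1463 and 677 in WT. The first 2 WT replicates were above every Mcph1-/- library, and WT replicate 3 lay within their range. The means were 837 ± 172 in Mcph1-/- and 1299 ± 559 in WT (SD, n = 3), and the log2 fold change was -0.55 (SE 0.40, limma adjusted p = 0.726). Rnf8 was negative in each alternative tried, from -0.96 without WT replicate 3 to -0.27 without WT replicate 1. Rnf168, which extends the ubiquitin mark that RNF8 starts, lies at positions 32277459 to 32301434 of chromosome 16, plus strand (mm10). It stood at 130.4, 236 and 159 in Mcph1-/- and at 0, 208 and 97.2 in WT. The difference rests on the WT library at 0: the log2 fold change, 2.64 with an SE of 2.01 (limma adjusted p = 0.727), was 0.25 without WT replicate 1.

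**Figure D3:**
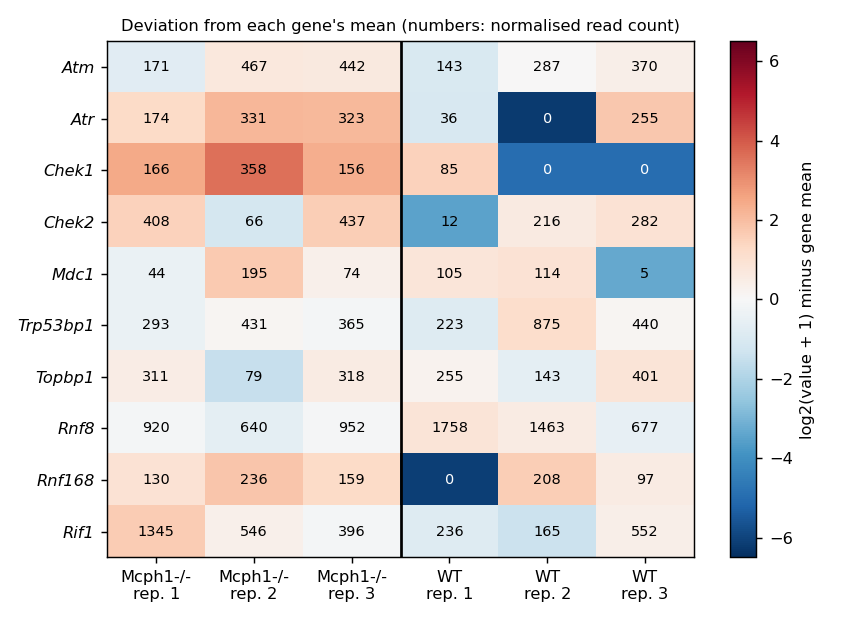
Deviation of log2(value + 1) from the mean of each gene (colour), with the normalised read count printed, for the 10 genes in the 3 Mcph1-/- libraries (left) and the 3 WT libraries (right). The 4 values of 0 all lie in WT, and no library is low or high for every gene.

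The members did not move as 1 block across libraries. Mcph1-/- replicate 2 held the highest value of 5 genes (Atm, Atr, Chek1, Mdc1 and Rnf168) and the lowest of 2 (Topbp1 and Rnf8), and its Chek2 was low too. WT replicate 1 held the lowest value of 4 genes (Atm, Chek2, Trp53bp1 and Rnf168) and the highest of Rnf8. WT replicate 2 held the lowest of Atr, Chek1 and Rif1 and the highest of Trp53bp1. All 4 member values of 0 were in WT (Chek1 in replicates 2 and 3, Atr in replicate 2, Rnf168 in replicate 1), and none was in Mcph1-/-. Mcph1-/- libraries also had more listed genes detected, 10516 to 10777 against 10209 to 10335 in WT, and more reads, and the part of this in the members' zeros was not tested. Within genotypes the members' median coefficient of variation was 47.9% in Mcph1-/- and 72.9% in WT, against 40.7% and 54.6% over all tested genes in Mcph1-/- and WT. The sum over the 10 genes was 3349 to 3961 in Mcph1-/- and 2853 to 3472 in WT. These ranges overlap. Without Rnf8, the member with the highest mean count in both genotypes, the sum was 2671 to 3041 in Mcph1-/- and 1095 to 2403 in WT. Rnf8 also had the lowest log2 fold change of the members (-0.55), so leaving it out favours a gap in this direction.

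Levels were compared between genes on a per-length scale, as reads per kilobase of annotated exons and per 1000000 listed reads (RPKM). Members were long, with a median exonic length of 10421 bases against 4053 over all listed genes with an annotation. On this scale Chek2 was first in Mcph1-/- at 11.8 ± 8.07 RPKM, followed by Rif1 at 8.45 ± 5.58, Rnf8 at 8.36 ± 1.74, Chek1 at 5.71 ± 2.85 and Rnf168 at 4.59 ± 1.43 (SD, n = 3). Then came Atm at 4.07 ± 1.88, Trp53bp1 at 2.997 ± 0.58, Topbp1 at 2.46 ± 1.42, Mdc1 at 1.64 ± 1.26 and Atr at 1.37 ± 0.45. No neighbours in that Mcph1-/- order differed by more than the larger of their SDs. In WT, Rnf8 was first at 12.7 ± 5.44 RPKM, ahead of Chek2 at 6.49 ± 5.37 by more than the larger SD, and no lower neighbours differed by more than theirs. The WT order went on with Trp53bp1 at 4.15 ± 2.70, Rif1 at 3.45 ± 2.23, Atm at 2.95 ± 1.27, Topbp1 at 2.71 ± 1.31, Rnf168 at 2.61 ± 2.68 and Mdc1 at 1.15 ± 0.93. Chek1 at 0.69 ± 1.20 and Atr at 0.47 ± 0.67 were last in WT. Chek1 thus stood above Rnf168 in Mcph1-/- and next to last in WT. The exonic length of Atr, 23629 bases, joins all annotated transcripts, which lowers its per-length level. By their mean over all libraries, members stood between the 6.18 and the 57.4 percentile of listed genes, with a median of 30.3.

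Genes that share a start region with members gave a comparison the choice of members did not use. Atm, Chek2 and Topbp1 each have a protein-coding neighbour transcribed away from them, with starts 307, 202 and 133 bases apart. Npat, beside Atm, encodes a coactivator of histone genes in S phase and stood at 206, 119 and 47.3 in Mcph1-/- and at 0, 11.3 and 45.6 in WT. Its genotypes did not overlap, with 47.3 in Mcph1-/- just above 45.6 in WT, while those of Atm did, and its log2 fold change was 3.68 (SE 1.82, limma adjusted p = 0.662). Hscb, beside Chek2, encodes a cochaperone of iron-sulfur cluster assembly and stood at 2698, 1390.4 and 1754 in Mcph1-/- and at 2319.6, 2830.1 and 1898 in WT. The log2 fold change of Hscb was -0.31 (SE 0.29, limma adjusted p = 0.773), with the sign opposite to that of Chek2. The neighbour of Topbp1, 1300017J02Rik, stood at 17.3, 129 and 32.1 in Mcph1-/- and at 0, 11.3 and 35.4 in WT, which overlap. The log2 fold change of 1300017J02Rik was 2.49 (SE 1.88, limma adjusted p = 0.727), with the sign opposite to that of Topbp1. These neighbours were looked at after the members' values were known.

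The genes most like Chek1, Rif1 and Atr, the members with the smallest p, were found by the root mean square difference of mean-centred log2(value + 1) over the 6 libraries, among 10845 tested genes. For Chek1 they were Simc1 (0.49), Rmnd5a (0.52) and Blcap (0.54), which share its 0 reads in WT replicates 2 and 3. For Rif1 they were Klf3 (0.14), Mbnl2 (0.32) and Tbc1d19 (0.34), with Klf3 at 587, 268 and 162 in Mcph1-/- and at 99.8, 71.1 and 296 in WT. For Atr they were Qser1 (0.44), Xpr1 (0.48) and Hnrnpll (0.53), each at 0 in WT replicate 2.

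**Figure D4:**
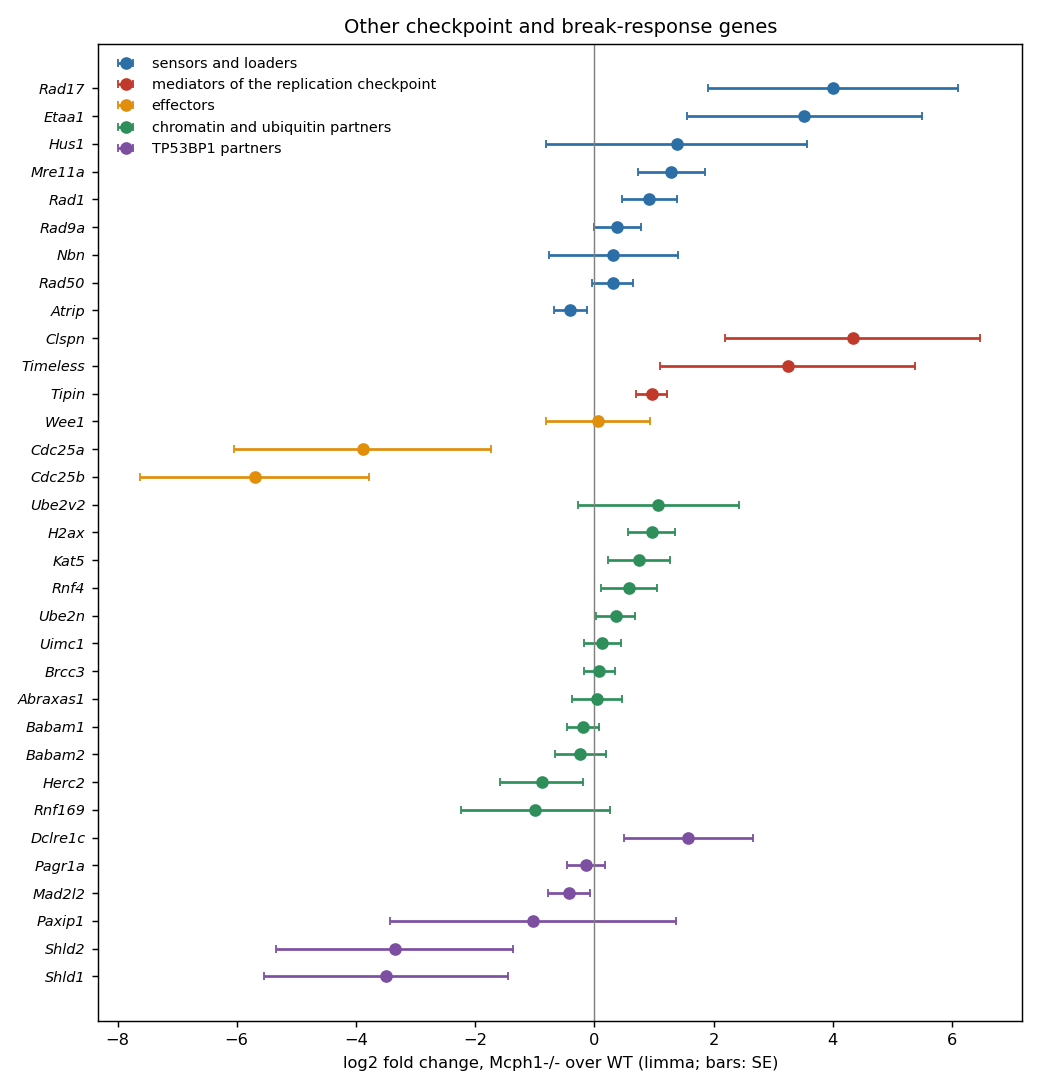
Log2 fold change (x axis, Mcph1-/- over WT, limma, bars are SE) of 33 other checkpoint and break-response genes, coloured by role. All 3 mediators of the replication checkpoint lie above 0, while Cdc25a, Cdc25b, Shld1 and Shld2 lie below -3.

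Other genes of the checkpoint gave the setting. Of 39 such genes (43 names, of which 4 are synonyms), 33 were tested, and Cdc25c, Pkmyt1, Ppm1d, Shld3, Brca1 and Bard1 have no values here. By mean log2 difference 21 were higher in Mcph1-/- and 12 lower, against 53.8% of all tested genes higher. The median of the 33, 0.31, stood beside 0.08 over all tested genes. That median was 0.11, 0.14 and 0.17 without WT replicates 1, 2 and 3, 0.195 without Mcph1-/- replicate 3, 0.16 by edgeR and 0.13 by DESeq2. None passed by limma, and 3 were higher and 1 lower at an unadjusted p under 0.05, against 4.16% higher and 3.55% lower over all tested genes. After adjustment edgeR and limma-voom also called 0, while DESeq2 called 1, Tipin, and 1.11% of all tested genes as higher. All Mcph1-/- libraries were above all WT libraries for 2 of the 33 genes and below them for 3, near the 7.4% and 6.8% of all tested genes.

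The replication checkpoint arm, through which ATR reaches CHK1, held the gene with the smallest p. Tipin, a partner of Timeless in the complex that protects forks, stood at 1675, 1443 and 2074 in Mcph1-/- and at 943, 979 and 737 in WT. Every Mcph1-/- library was above every WT library, and the log2 fold change was 0.96 (SE 0.26, limma adjusted p = 0.551, DESeq2 adjusted p = 0.0105). Clspn, the claspin adaptor for CHK1, stood at 219.9, 59.9 and 60.7 in Mcph1-/- and at 101, 0 and 0 in WT, with the same libraries at 0 as Chek1. Its log2 fold change was 4.33 (SE 2.14, limma adjusted p = 0.662), and that of Timeless was 3.24 (SE 2.14, limma adjusted p = 0.700). Of 9 tested sensors and loaders, 8 were higher, against 53.8% of all tested genes. Of the 8, only Mre11a had a 95% interval that excluded 0 (0.01 to 2.57). Mre11a, the nuclease of the complex that activates ATM, stood at 438, 343 and 528 in Mcph1-/- and at 118, 181 and 250.03 in WT. The log2 fold change of Mre11a was 1.29 (SE 0.56, limma adjusted p = 0.646). Atrip, the obligate partner of ATR, was at 1582, 865 and 1424 in Mcph1-/- and at 1613, 1598 and 1773 in WT, and its log2 fold change was -0.41 (SE 0.28, limma adjusted p = 0.706), opposite in sign to Atr.

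Targets and chromatin partners went both ways. Cdc25b, a phosphatase that activates cyclin-dependent kinases and is restrained by CHK1, stood at 0, 50.9 and 0 in Mcph1-/- and at 180.02, 152 and 262 in WT. Its Mcph1-/- libraries were all below its WT libraries, and the log2 fold change was -5.70 (SE 1.92, limma adjusted p = 0.626). H2ax, the histone whose phosphorylated form MDC1 binds, stood at 4253, 3306 and 2443 in Mcph1-/- and at 2925, 990.1 and 1595 in WT. WT replicate 1 lay among the Mcph1-/- libraries, and the log2 fold change was 0.96 (SE 0.39, limma adjusted p = 0.639). Of 6 tested TP53BP1 partners 5 were lower, while 53.8% of all tested genes were higher. The 5 included the shieldin subunits Shld1 (log2 fold change -3.49, SE 2.04) and Shld2 (-3.35, SE 1.99), and neither passed.

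The summed level of genes of cycling cells did not overlap between genotypes in the same libraries, although no single gene passed by limma. Of 24 such genes tested, 22 had a higher mean log2 value in Mcph1-/-, against 53.8% of all tested genes. Their log2 fold changes had a median of 1.03, and their summed level was 20753 to 22900 in Mcph1-/- and 9584 to 11722 in WT. By limma 9 were higher at an unadjusted p under 0.05, against 4.16% of all tested genes. After adjustment edgeR's quasi-likelihood test called 0, and DESeq2 called 6 with higher means in Mcph1-/- (Ube2c, Kif11, Rrm2, Mcm6, Ccna2 and Ccnb2), against 1.11% of all tested genes called higher. Chek1, Clspn and Tipin are known to follow the cell cycle, being most abundant around S phase, and the part of cycling in their values was not tested.

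**Figure D5:**
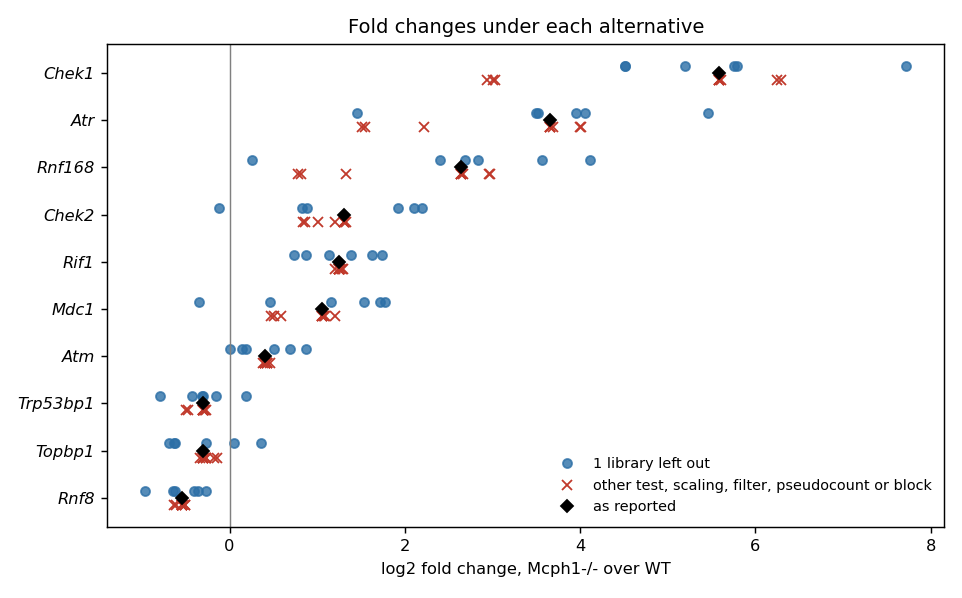
Log2 fold change (x axis, Mcph1-/- over WT) of the 10 genes as reported (diamonds), with 1 library left out (circles) and with another test, scaling, filter, pseudocount or replicate block (crosses). Chek1 ranges from 2.94 to 7.72, while the circles of Chek2, Mdc1, Trp53bp1 and Topbp1 lie on both sides of 0.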

How the data were processed

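Build mm10 and the tools featureCounts, HISAT2, DESeq2 and Trim Galore 0.6.6 are listed, without role or order, per the submitters' processing notes. Not given in the sources used here are annotation release and strand setting. The values the authors deposited are a signal, gene reads divided by 1 size factor per library (0.922 to 1.22). From the values, 100% are a whole number of reads times 1 step per library, within 0.001 reads, so reads were recovered. Depth was 8102605 to 10455908 reads. Floors and intervals cover counting error only, because reads carried no molecular identifiers.

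The 10846 genes whose mean value reached 10 entered limma-trend 3.58.1 (R 4.3.3) on log2(value + 1). Genotype was the sole term, all 6 libraries were fitted together, and the threshold was an adjusted p of 0.05. Fold changes on that scale understate the change of low genes, while zeros push them above the ratio of means. On simulated counts with known changes, limma and edgeR missed many changed genes at the spread seen here, and DESeq2 called more unchanged genes than either. Those counts were drawn from a model with a spread estimated per gene, so they cannot tell which calls in the real data are true. Alternatives were edgeR 4.0.16, DESeq2 1.42.0 and limma-voom on recovered reads, pseudocounts of 0.5 and 16, equal library totals, no filter, a minimum mean of 50, each library left out and a replicate block. Coordinates are 1-based, from GENCODE vM21 on mm10. Genes without a symbol (444) were kept.

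The members and lists were chosen with earlier results of these data known. Named genes were all members, the 4 other checkpoint genes with the smallest p, and the 3 genes most like each of the 3 members with the smallest p. Atrip, Clspn, Timeless, Cdc25a, Shld1, Shld2 and the start-site neighbours were named after their values were seen. Libraries of 1 genotype all differed beyond counting noise (chi-square over degrees of freedom at least 82.9).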

Additional observations from a re-analysis of the deposited data

How the results depend on the processing

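No member passed the threshold in any of the 15 alternatives. The members that kept the sign of their log2 fold change in all of them were Atm (0.01 to 0.87), Atr (1.46 to 5.46), Chek1 (2.94 to 7.72), Rnf8 (-0.96 to -0.27), Rnf168 (0.25 to 4.11) and Rif1 (0.74 to 1.74). With 1 library left out, Chek2 ran from -0.12 (without WT replicate 1) to 2.19, Mdc1 from -0.35 (without WT replicate 3) to 1.78 and Trp53bp1 from -0.79 to 0.19 (without WT replicate 2). Topbp1 ran from -0.68 to 0.36 (without Mcph1-/- replicate 2) and was 0.05 without WT replicate 3. The members' median ran from 0.13 (without WT replicate 1) to 1.22. Genes called over all genes numbered 4 as reported, 2 by edgeR, 238 by DESeq2, 1 by limma-voom, and 1 to 4 with a library left out (2 without Mcph1-/- replicate 1, 1 without WT replicate 1 and 1 without WT replicate 2). Of the other checkpoint genes, 18 to 24 were higher with a library left out against 21 as reported, and 0 were called in each of those fits, while DESeq2 called 1 (Tipin). The cause of these differences was not tested. Values of a few reads carry a large counting error, such as Mdc1 in WT replicate 3, with 5 reads. That library had the highest depth of the WT libraries, 8655123 reads.

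Replicate numbers are shared by both genotypes, but same-numbered libraries did not deviate together (correlations across genes of -0.01, 0.02 and -0.03), so nothing shows that the numbers pair the samples. With the replicate block, 3 genes were called over all genes and the Chek1 log2 fold change was 5.58 (limma adjusted p = 0.700).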
